A study of Mus musculus with 16 samples.

Results

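Fatty acid oxidation genes and targets of the PPAR nuclear receptors are described here in mouse kidney after muscle injury by glycerol. The 38 genes were chosen by name from the biochemistry of the pathway, with earlier results of these data known. All 38 passed the filter for low values, a normalized count of 10 or more in 4 or more of the 16 libraries, as did 18035 of the 20525 listed genes. By role they were 11 mitochondrial enzymes, 3 genes of the carnitine shuttle, 3 genes of electron transfer, 9 peroxisomal enzymes, 1 gene of peroxisome division, 5 genes of fatty acid uptake and activation, 3 regulators and 3 PPAR targets outside beta-oxidation. Eci2 was grouped with the peroxisomal enzymes although its protein is also found in mitochondria.

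The study measured RNA by sequencing in lysates of 30 µm frozen kidney sections from mice 8 weeks old, with the strain background given as C56BL/6. Rhabdomyolysis, in which damaged muscle sheds myoglobin and other heme proteins that harm the kidney, was brought on with 50% glycerol at 7.5 ml/kg given into a thigh muscle. The 4 groups of 4 libraries were wild-type (WT) mice given PBS, WT mice given glycerol, C3-/- mice given PBS and C3-/- mice given glycerol. C3-/- denotes a deficiency of complement component C3, a plasma protein on which the complement activation pathways converge. The labels give no sex and no time of sampling, and they do not say that the libraries of a group came from separate animals. The p-values therefore measure only the spread between these libraries, which may be technical.

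Beta-oxidation shortens fatty acids in repeated cycles of dehydrogenation, hydration, a second dehydrogenation and thiolysis. Mitochondria import long-chain fatty acids through the carnitine shuttle and pass the electrons of the first step to the respiratory chain through the electron transfer flavoprotein, whereas peroxisomes use oxidases that reduce oxygen and mostly shorten very long and branched chains. The proximal tubule is the main site of fatty acid oxidation in the kidney, and PPARα with its coactivator PGC-1α and the estrogen-related receptor ERRα drives transcription of the pathway.

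Differences between libraries crossed the groups. The S numbers in the sample descriptions run from 1 to 13 over 13 libraries, while the numbers 3, 4 and 5 occur again in replicate 4 of the WT glycerol group and replicates 1 and 3 of the C3-/- glycerol group (here called the second S series, and the 13 the first). No label names a run or batch, and what the repeated numbers stand for is not stated. Y-linked transcripts (Ddx3y at least 100) were found in each of the 8 WT libraries, but among C3-/- libraries only in PBS replicate 4 and in glycerol replicates 3 and 4, and not in the other 5. Xist, the X-linked transcript among the sex chromosome markers, was 16098 to 35410 in those 5 and 3.7 to 104.8 in all libraries with Y-linked transcripts. Y-linked status below therefore also stands for this split in Xist. Genes listed at 0 numbered 3374 in WT glycerol replicate 4 and 190 to 982 in the other libraries. C3 itself ranged from 334.9 to 470.5 in WT PBS and from 563.8 to 1139.7 in C3-/- PBS, and from 1712 to 4718 and 1457 to 8008 after glycerol, so it was not lower under the C3-/- label. The sources used here do not give the deleted part, so this total checks nothing, and the genotypes rest on the labels. Transcripts of 12 proximal tubule markers were all present, and their median log2 difference from the WT PBS mean was -1.86, -3.33, -1.51 and -2.21 in the 4 WT glycerol libraries, -0.20 to 0.19 in C3-/- PBS, and -2.21, -1.84, -0.80 and -1.48 in C3-/- glycerol. Single markers went opposite ways in C3-/- glycerol replicate 3. There Slc34a1 was 158390 and Slc22a8 26519, above WT PBS means of 106261 and 12336. Lrp2 was 26641 and Slc5a12 421.7, below WT PBS means of 56170 and 8146. Of the 12 markers, 8 fell in WT and 2 in C3-/-, where 13.3% and 1.96% of tested genes fell. By limma 0 differed between the genotypes after glycerol, where 6.38% of tested genes were higher and 4.85% lower. Spread within C3-/- glycerol was wide for some, such as Kap at 33978 to 478915, so this 0 does not show equal levels. Markers of other tubule segments moved too. In WT 4 of 6 for the thick ascending limb and distal tubule and 4 of 6 for the collecting duct fell (13.3% of genes). After glycerol 2 and 4 of these lists were higher in C3-/- than in WT (6.38%), the direction of the members called there. Summed neutrophil markers (5 of 6 listed) were 137 to 221 in WT PBS, 478 to 1099 in WT glycerol, 28.8 to 47.4 in C3-/- PBS and 66.7 to 209 in C3-/- glycerol. Less RNA per cell and fewer proximal tubule cells cannot be told apart in such bulk lysates. The part of marker loss, S series and Y-linked status in the results below was not tested beyond the refits given beside them.

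Upstream sequence is shown for Acadm and Cpt1a, which encode the medium-chain acyl-CoA dehydrogenase and the entry enzyme of the carnitine shuttle, and for the interval between Hadha and Hadhb, the genes of the alpha and beta subunits of the mitochondrial trifunctional protein. They are shown because the values below compare these genes as parts of 1 route into the mitochondrion, and because Hadha and Hadhb share this interval. The letters are from RefSeq on GRCm38.p6, in lower case with each nuclear receptor half-site AGGTCA, on either strand (TGACCT on the other), in capitals. The Acadm window is the 250 bases before the RefSeq start on chromosome 3, chr3:153944644-153944893, minus strand, outside annotated exons. The Cpt1a window is the 250 bases before the RefSeq start on chromosome 19, chr19:3323051-3323300, plus strand, with 16 bases in an annotated exon. It lies inside the GENCODE model of Cpt1a, which spans chr19:3322334-3385733, so it is upstream of the RefSeq start only. The third stretch is the whole 85 bases between the divergent GENCODE models of Hadha (minus strand) and Hadhb (plus strand), chr5:30155163-30155247, read on the plus strand.
Acadm: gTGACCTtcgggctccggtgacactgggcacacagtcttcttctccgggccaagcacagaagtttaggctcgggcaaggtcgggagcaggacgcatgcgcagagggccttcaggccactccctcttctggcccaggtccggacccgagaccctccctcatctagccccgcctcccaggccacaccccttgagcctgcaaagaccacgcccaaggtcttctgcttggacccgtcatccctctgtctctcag
Cpt1a: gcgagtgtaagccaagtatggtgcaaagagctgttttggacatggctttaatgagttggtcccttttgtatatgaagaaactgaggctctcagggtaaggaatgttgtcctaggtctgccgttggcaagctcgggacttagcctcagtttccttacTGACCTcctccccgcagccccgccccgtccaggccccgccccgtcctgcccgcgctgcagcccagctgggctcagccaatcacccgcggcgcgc
Hadha and Hadhb: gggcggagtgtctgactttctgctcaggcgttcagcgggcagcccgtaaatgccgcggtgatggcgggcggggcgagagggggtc

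Of the 38 members, 33 had RefSeq promoter windows (250 bases before to 50 after a start), 36 windows in all. The half-site AGGTCA, searched on both strands, was in 6 of the 36 (16.7%), those of Acadm, Acadvl, Cd36, Cpt1a, Echs1 and Slc27a2, and in 16.3% of all 32851 windows. The DR1 element that PPAR-RXR pairs bind, 2 copies of AGGNCA in direct repeat with 1 base of spacing, was in 0 of 36 member windows and in 0.381% of all windows. The ERR element TCAAGGTCA, which contains the half-site, was likewise in 0 of 36, against 0.423% of all windows. These counts cover only the windows searched.

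In WT kidney many of the fatty acid oxidation genes fell after glycerol. Among them were 7 of 11 mitochondrial enzymes, 6 of 9 peroxisomal enzymes, 1 of 3 carnitine shuttle genes and 2 of 5 uptake genes. The uptake genes nevertheless had a median log2 fold change of -1.92, and 4 of the 5 had groups without overlap. All 38 fitted log2 fold changes were negative. At a limma adjusted p below 0.05 (Benjamini-Hochberg over all tested genes), 21 of the 38 fell and 0 rose, where 13.3% of all tested genes fell and 12.5% rose. The median log2 fold change was -1.26 over the members and -0.11 over all tested genes. For 27 members every WT glycerol library lay below every WT PBS library, which held for 22.4% of tested genes. Within the first S series, with 3 glycerol libraries, 34 members fell (28.9% of tested genes), and 35 fell with S series and Y status as covariates (26.2%). With each library rescaled to an equal total, 17 members fell and 0 rose, while calls over all genes went from 2262 higher and 2404 lower to 2521 higher and 1716 lower.

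**Figure D1:**
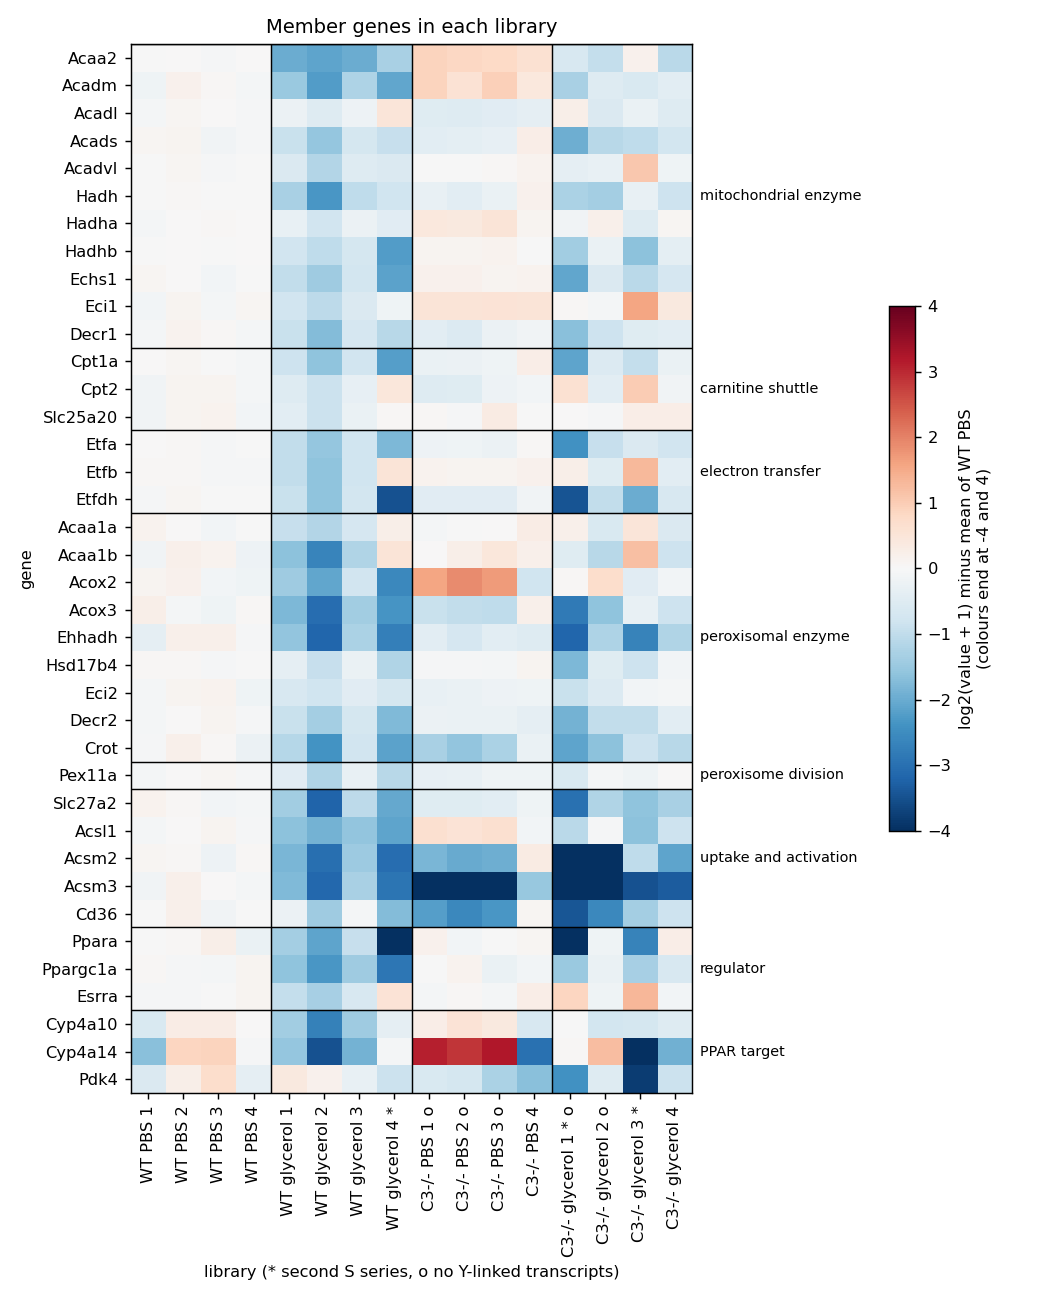
Each row is 1 member gene and each column 1 library, and the colour is the log2(normalized count + 1) minus the mean of the 4 WT PBS libraries (colours end at -4 and 4). Blue fills most of the WT glycerol columns, the C3-/- PBS libraries without Y-linked transcripts (o) stand apart in Acsm3, Cd36 and Cyp4a14, and the second-series libraries (*) differ from the other glycerol libraries in genes such as Etfdh and Acaa1b.

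Among the mitochondrial enzymes 7 of 11 fell in WT, with a median log2 fold change of -1.10, and 10 of 11 had groups that did not overlap. Acaa2, the thiolase of the last step, had normalized counts of 4022, 4144, 3947 and 4134 in WT PBS replicates 1 to 4 and 1025, 932, 1029 and 1654 after glycerol. All 4 glycerol libraries were below all PBS libraries, a log2 fold change of -1.85 ± 0.24 (SE; limma adjusted p = 8.52e-05), with the second-series replicate 4 the highest. Acadm went from 21407, 27213, 24859 and 22796 to 8544, 5094, 10200.5 and 5626, again without overlap (-1.76 ± 0.25, adjusted p = 0.000182). Acads, the short-chain dehydrogenase, fell by 1.02 ± 0.25 on the log2 scale, Hadh, the hydroxyacyl-CoA dehydrogenase, by 1.35 ± 0.30, Echs1, the enoyl-CoA hydratase, by 1.32 ± 0.31 and Decr1, the dienoyl-CoA reductase for unsaturated chains, by 1.10 ± 0.26 (limma adjusted p of 0.00876, 0.00418, 0.0061 and 0.00656).

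Hadha and Hadhb, neighbours on 85 bases, encode the subunits of 1 enzyme complex for long-chain acyl-CoA. Hadhb was 7019, 7231, 7044 and 7138 in WT PBS and 4225, 3499, 4349.7 and 1513 after glycerol, and it fell by 1.18 ± 0.33 (adjusted p = 0.0176). Hadha was 5003, 5292, 5468 and 5333 in WT PBS and 4309, 3101, 4494 and 3868 after glycerol, which did not overlap either but was not called (-0.43 ± 0.17, adjusted p = 0.0804; -0.43 with adjusted p = 0.0122 within the first S series). For Hadhb 19.7% of its 50-base transcript windows recur in other genes, mostly the pseudogene Gm13910, so its level is less certain. The long-chain dehydrogenase Acadl was the member enzyme of mitochondria nearest to no difference, at -0.12 ± 0.21 (adjusted p = 0.714), with 13955 in WT glycerol replicate 4 and 6962 to 8698 in the other glycerol libraries. Acadvl, the very long-chain dehydrogenase (-0.72 ± 0.26, adjusted p = 0.0548), and the isomerase Eci1 (-0.64 ± 0.28, adjusted p = 0.11) were not called, and both were called lower within the first S series.

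In the carnitine shuttle 1 of 3 genes fell in WT. Cpt1a, which forms acylcarnitines on the outer membrane, was 12108, 12743, 11817 and 11273 in WT PBS and 6783, 3962, 7020.3 and 2616 after glycerol (-1.34 ± 0.36, adjusted p = 0.0132). The groups did not overlap, and the second-series library was the lowest. Slc25a20, the carrier of the inner membrane, was not called (-0.37 ± 0.17, adjusted p = 0.129), nor was Cpt2, which reforms acyl-CoA inside (-0.31 ± 0.30, adjusted p = 0.48). Cpt2 stood at 4376 in the second-series glycerol library and at 2244, 1748 and 2546 in the others, and within the first S series it fell by 0.56 (adjusted p = 0.00435).

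Of the electron transfer genes Etfa and Etfdh fell in WT and Etfb did not pass the test. Etfa, the alpha subunit of the flavoprotein, fell by 1.27 ± 0.33 on the log2 scale (adjusted p = 0.0104). Etfdh, its oxidoreductase at the respiratory chain, was 5393, 5789, 5480.5 and 5479 in WT PBS and 2992, 1802, 3349 and 498 after glycerol, a log2 fold change of -1.68 ± 0.58 (adjusted p = 0.0445). The second-series library was the lowest, and within the first S series the change was -1.08 (adjusted p = 0.000243). The Etfdh call ended without any 1 of the 8 PBS libraries, WT glycerol replicates 2 or 4, or C3-/- glycerol replicate 3 (adjusted p up to 0.117). Etfb, the beta subunit, was 3836.5, 2514 and 4418 in the first-series glycerol libraries and 10979 in the second-series one, against 7369.6 to 7921 in WT PBS (-0.71 ± 0.40, adjusted p = 0.207; -1.12 with adjusted p = 3.52e-05 within the first S series). Its transcript windows recur in other genes for 44.8%, chiefly Gm45233.

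Among the peroxisomal enzymes 6 of 9 fell in WT, with a median log2 fold change of -1.25 and 7 of 9 without overlap (5 of 8 and -1.43 without Eci2). Ehhadh, the bifunctional hydratase and dehydrogenase of the classical PPARα-inducible pathway, was 14000.5, 20856, 20932.5 and 17549 in WT PBS and 6034.5, 1998, 7588 and 2698 after glycerol. It was lower in every glycerol library (-2.19 ± 0.45, adjusted p = 0.00275). Acox3, an oxidase for branched chains, was 8796, 7082.5, 6663 and 7686 against 2162, 900, 2844 and 1457 (-2.16 ± 0.47, adjusted p = 0.00386). Crot, the octanoyltransferase that exports shortened chains as carnitine esters, fell by 1.61 ± 0.38 (adjusted p = 0.00586), and Decr2, the peroxisomal dienoyl-CoA reductase, by 1.18 ± 0.27 (adjusted p = 0.00522).

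Acox2, the oxidase of bile acid intermediates and branched chains, was 2324, 2447, 2019 and 1908 in WT PBS and 800, 513, 1281 and 358.5 after glycerol (-1.71 ± 0.51, adjusted p = 0.0228). It was no longer called without WT PBS replicates 1 or 2 or WT glycerol replicates 2 or 4 (adjusted p up to 0.062). Eci2, an enoyl-CoA isomerase, fell by 0.64 ± 0.17 (adjusted p = 0.0136). The thiolase genes Acaa1a and Acaa1b lie on chromosome 9 and share sequence, with 12.9% and 30.5% of their transcript windows found elsewhere, and their split is uncertain. Acaa1b was 1964, 973 and 2648 in the first-series glycerol libraries and 8840 in the second-series one, against 5345 to 7027 in WT PBS (-1.25 ± 0.55, adjusted p = 0.11; -1.84 with adjusted p = 7.86e-05 within the first S series). Acaa1a (-0.64 ± 0.29, adjusted p = 0.117) and Hsd17b4, the D-specific bifunctional enzyme (-0.69 ± 0.29, adjusted p = 0.092), were not called. Pex11a, which acts in peroxisome division, fell by 0.76 ± 0.20 (adjusted p = 0.0115).

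Of the uptake and activation genes 2 of 5 fell in WT, with a median log2 fold change of -1.92 and 4 of 5 without overlap. Acsl1, which activates long-chain fatty acids, was 7235, 7675, 8265 and 7321 in WT PBS and 2461, 2059.7, 2556 and 1751 after glycerol, with no overlap (-1.80 ± 0.27, adjusted p = 0.000312). Slc27a2, the transporter and acyl-CoA synthetase FATP2, went from 117504, 108969, 98663 and 99189.9 to 40206, 11498, 51375 and 25381 (-1.92 ± 0.43, adjusted p = 0.00466). The medium-chain synthetase genes Acsm2 (-2.33 ± 0.85, adjusted p = 0.0552) and Acsm3 (-2.29 ± 1.92, adjusted p = 0.4) also had WT glycerol libraries that were all below the PBS libraries, but their spread in the pooled fit was wide. That fit takes 1 spread from all groups, and within C3-/- PBS Acsm2 ranged from 28291 to 142947 and Acsm3 from 125 to 10202. With S series and Y status as covariates Acsm2 and Acsm3 fell in WT (limma adjusted p = 0.000443 and 0.0142). Cd36, the fatty acid translocase, was not called (-0.87 ± 0.61, adjusted p = 0.314), with 10444, 4555, 11611 and 3668 after glycerol and 11046 to 13949 in PBS. With both covariates Cd36 was called lower in WT (-0.64, limma adjusted p = 0.041).

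Of the regulators Ppargc1a, which encodes PGC-1α, fell in WT. It was 3881.5, 3665, 3575 and 4067 in PBS and 1255, 763, 1423 and 514 after glycerol, a log2 fold change of -2.05 ± 0.30 (adjusted p = 0.000266) without overlap. Ppara was 886, 940.3, 1054 and 754 in PBS and 353, 207, 478 and 52.9 after glycerol, again without overlap but not called in the pooled fit (-2.11 ± 0.82, adjusted p = 0.0707). The second-series library was the lowest, and within the first S series Ppara fell by 1.46 (adjusted p = 0.000156). Esrra, which encodes ERRα, was 1383, 1066 and 1726 in the first-series glycerol libraries and 3892 in the second-series one, against 2576 to 2899 in PBS (-0.59 ± 0.37, adjusted p = 0.251; -0.97 with adjusted p = 8.17e-05 within the first S series).

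Of the PPAR targets outside beta-oxidation Cyp4a10, a fatty acid omega-hydroxylase, fell by 1.46 ± 0.40 (adjusted p = 0.0156), although 29.8% of its transcript windows recur in Cyp4a31 and Cyp4a32. Its WT glycerol values of 3584.5, 1449, 3483 and 7355.5 overlapped the PBS range of 6078.5 to 11552. Its neighbour Cyp4a14, 22121 bases away, ranged from 383 to 2248 in PBS and from 109 to 1146 after glycerol and was not called (-1.75 ± 1.35, adjusted p = 0.358). Pdk4, the kinase that restrains pyruvate oxidation, showed no detectable difference (-0.14 ± 0.57, adjusted p = 0.874), with overlapping ranges of 1080.4 to 2618 and 897 to 2128.

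**Figure D2:**
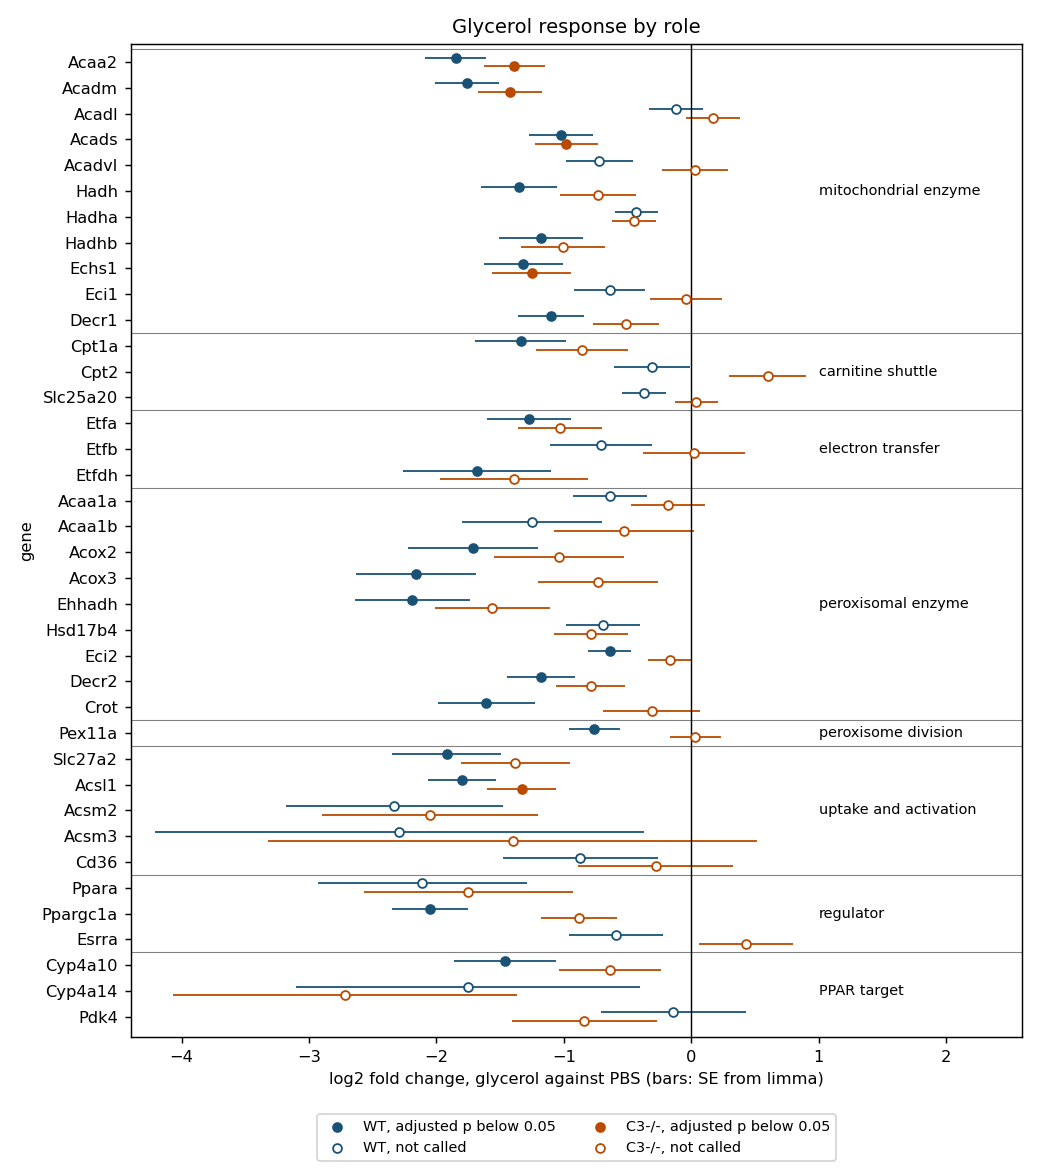
Points are limma log2 fold changes of glycerol against PBS for each member, with bars of 1 standard error, in WT (blue) and C3-/- (orange), filled where the adjusted p was below 0.05. In WT all points lie left of 0 and 21 are filled, and in C3-/- 31 lie left of 0 and 5 are filled.

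The mitochondrial and peroxisomal enzymes were compared within each library, as the median over the 11 mitochondrial enzymes minus the median over the 9 peroxisomal enzymes of the log2 difference from WT PBS. This difference was -0.07 to 0.03 in WT PBS and 0.25, 0.65, 0.06 and 0.83 in WT glycerol replicates 1 to 4, above 0 in each. The peroxisomal median was thus the lower one in every WT glycerol library, by amounts that ranged widely. In C3-/- PBS the difference was already 0.32 to 0.36. After glycerol it was 0.54, 0.40, -0.04 and 0.13 in C3-/- replicates 1 to 4, so the groups C3-/- PBS and glycerol overlapped. The difference between the medians of the fitted log2 fold changes was 0.15 in WT, 0.0 in C3-/- and 0.11 for C3-/- against WT after glycerol. It rose to 0.57 in WT with S series and Y status as covariates and was -0.37 in C3-/- over the libraries with Y-linked transcripts. No test is given for these medians, since the genes were chosen with results known.

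**Figure D3:**
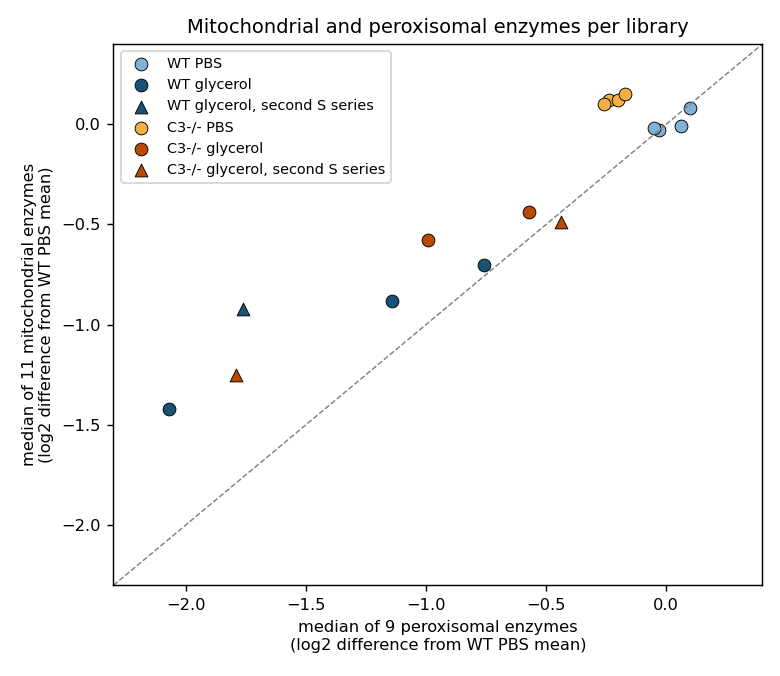
Each point is 1 library, placed by the median log2 difference from the WT PBS mean over 9 peroxisomal enzymes (x) and 11 mitochondrial enzymes (y), and the dashed line marks equal medians. All WT glycerol libraries lie above the line, the C3-/- PBS libraries lie above it with differences of 0.32 to 0.36, and the C3-/- glycerol libraries lie from -0.04 to 0.54.

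In C3-/- kidney fewer members passed the test after glycerol. Of the 38, 5 fell and 0 rose, where 1.96% of tested genes fell and 3.68% rose, and the median log2 fold change was -0.79 (all tested genes -0.06). The fitted change was negative for 31 members, and 12 had groups without overlap (9.71% of tested genes). The 5 were the mitochondrial enzymes Acaa2, Acadm, Acads and Echs1 and the synthetase Acsl1. Within the first S series, where the C3-/- glycerol group held 2 libraries, 11 fell (10.6% of tested genes). With S series and Y status as covariates 13 fell (8.47%), with Y status alone 8 fell (2.62%), and over the 11 libraries with Y-linked transcripts, with 1 PBS library, 0 fell (0.0% of tested genes). Leaving out 1 library also moved the count, to 12 without WT glycerol replicate 4, 8 without C3-/- glycerol replicates 2 or 4, and 3 without C3-/- PBS replicates 1, 2 or 3 or C3-/- glycerol replicate 1. The share of all tested genes called is not given for these fits, so a shift of the members cannot be told from a general one. With equal totals 4 members fell, while calls over all genes went from 663 higher and 353 lower to 745 higher and 226 lower.

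Acaa2 was 7526, 7172, 7097 and 6151 in C3-/- PBS replicates 1 to 4 and 2615, 2116.5, 4582 and 1941 after glycerol (-1.39 ± 0.24, adjusted p = 0.00316). No glycerol library reached the PBS range, and the second-series replicates 1 and 3 were the higher ones. Acadm was 44635, 35857, 46064 and 31913 in PBS and 9799, 16588.5, 15828.5 and 17727 after glycerol (-1.42 ± 0.25, adjusted p = 0.0038). Acsl1 was 11778.5, 11227, 11848 and 7111 in PBS and 3607, 7415, 2449.7 and 4281 after glycerol (-1.33 ± 0.27, adjusted p = 0.0102), and here the groups overlapped through PBS replicate 4. Echs1 fell by 1.25 ± 0.31 (adjusted p = 0.0285), a call lost without any 1 of the C3-/- PBS libraries or C3-/- glycerol replicate 1 (adjusted p up to 0.0799). Acads fell by 0.98 ± 0.25 (adjusted p = 0.0343), a call lost without any 1 of the 8 PBS libraries or C3-/- glycerol replicate 1 (adjusted p up to 0.099).

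None of the 9 peroxisomal enzymes was called in C3-/-, with a median of -0.73, the same as the -0.73 of the mitochondrial enzymes, of which 4 of 11 fell. Ehhadh came nearest (-1.56 ± 0.45, adjusted p = 0.0569): its values of 13388, 11292, 13579 and 12716 in PBS and 2027, 7701, 2812 and 7801 after glycerol did not overlap. Ppargc1a was 3748, 4218, 3168 and 3518 in PBS and 1351, 3139, 1503 and 2438 after glycerol (-0.88 ± 0.30, adjusted p = 0.102), also without overlap. The second-series libraries were the lowest of both genes. Cpt2 and Ppara also differed by S series, in opposite directions, with Cpt2 at 4894 and 6435 in the second-series glycerol libraries and 2365 and 2860.5 in the others, and Ppara at 46.4 and 140.1 against 797 and 1087.

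The second-series glycerol libraries lay above the first-series ones in both genotypes for 7 members (27.1% of tested genes did so) and below them for 10 (33.1%). The 7 were Acaa2, Acadl, Cpt2, Etfb, Acaa1a, Acaa1b and Esrra. The 10 were Hadhb, Echs1, Cpt1a, Etfdh, Hsd17b4, Decr2, Acsl1, Ppara, Ppargc1a and Pdk4. All PBS libraries were in the first S series, so in the second the S series and the treatment cannot be told apart.

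After glycerol, 6 members were higher in C3-/- than in WT and 0 were lower, where 6.38% of tested genes were called higher and 4.85% lower. The median log2 difference was 0.39 over the members and 0.04 over all tested genes. Every C3-/- library lay above every WT library for 4 members (6.21% of tested genes) and below for 1, Acsm3 (5.07%). Of the mitochondrial enzymes 3 of 11 were higher, of the peroxisomal enzymes 1 of 9, of the uptake genes 1 of 5 and of the regulators 1 of 3. Acaa2 was 1025, 932, 1029 and 1654 in WT and 2615, 2116.5, 4582 and 1941 in C3-/- (1.23 ± 0.24, adjusted p = 0.00367), with every C3-/- library above every WT library. Acadm was 8544, 5094, 10200.5 and 5626 in WT and 9799, 16588.5, 15828.5 and 17727 in C3-/- (1.05 ± 0.25, adjusted p = 0.0129). Only C3-/- replicate 1 lay within the WT range for Acadm.

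Eci1 was 945, 781, 1061 and 1415 in WT glycerol and 1669, 1531, 4756 and 2089.5 in C3-/- glycerol, without overlap (1.13 ± 0.28, adjusted p = 0.0173; 0.061 without WT glycerol replicate 2). Acox2 was 800, 513, 1281 and 358.5 in WT and 2257, 3536, 1591 and 2009.9 in C3-/- (1.77 ± 0.51, adjusted p = 0.0362). Its call ended without WT PBS replicates 1, 2 or 3, WT glycerol replicates 1, 2 or 4 or C3-/- glycerol replicates 1 or 2 (adjusted p up to 0.101) and with Y status as the only covariate (adjusted p = 0.16), as did those of Acsl1 (0.194) and Ppargc1a (0.0771). Ppargc1a was 1255, 763, 1423 and 514 in WT and 1351, 3139, 1503 and 2438 in C3-/- (1.12 ± 0.30, adjusted p = 0.0272), and only C3-/- replicate 1 overlapped the WT values. That call ended without WT glycerol replicate 2 or C3-/- glycerol replicates 2 or 4 (adjusted p up to 0.0822), and in the first S series the difference was 1.32 (adjusted p = 0.00089). Acsl1 was 0.91 ± 0.27 higher (adjusted p = 0.0441), a call kept only in the fits without C3-/- PBS replicate 4 or C3-/- glycerol replicates 1 or 3 (adjusted p up to 0.103 in the other 13).

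**Figure D4:**
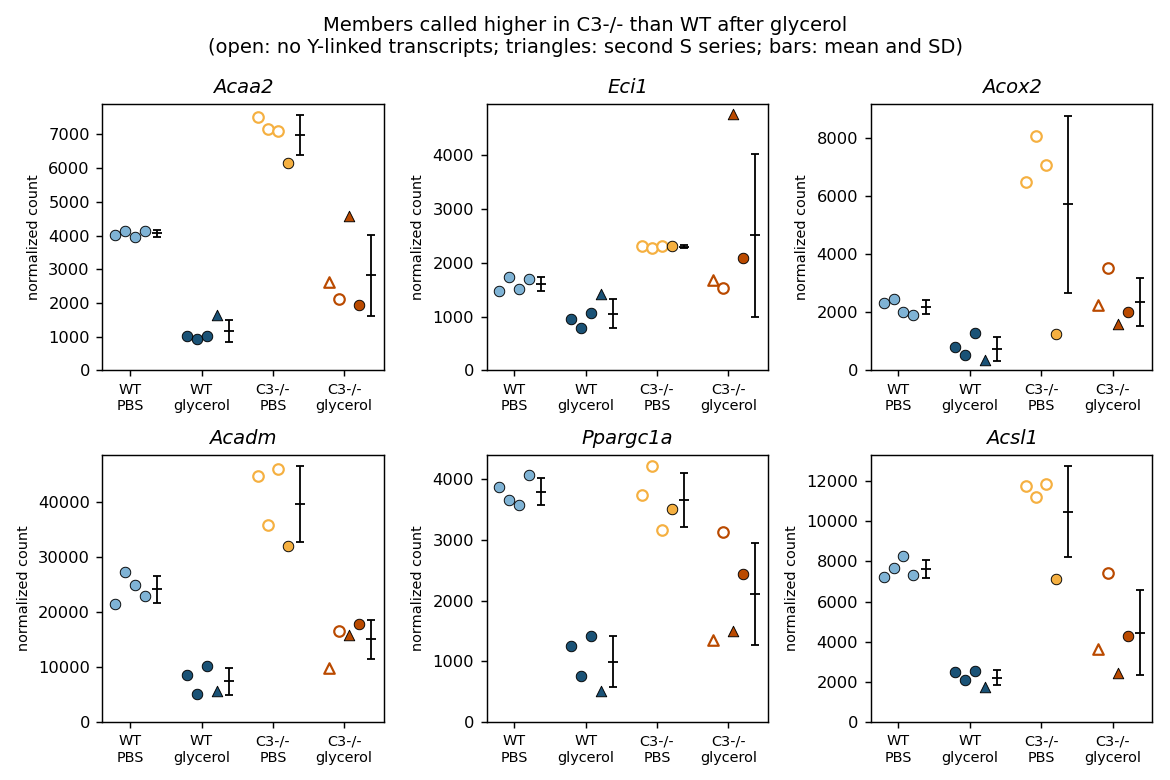
Normalized counts of the 6 members called higher in C3-/- than in WT after glycerol, by group, with 1 point per library and the mean and SD beside the points; open points lack Y-linked transcripts and triangles are second-series libraries. Acaa2, Eci1 and Acox2 do not overlap between the glycerol groups, and Acaa2, Eci1 and Acadm are also above WT in C3-/- PBS.

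The genotype count depended on the libraries. It was 16 higher within the first S series (15.5% of tested genes), 20 higher and 2 lower with S series and Y status as covariates (19.3% and 14.3%), and 2 higher over libraries with Y-linked transcripts (2.23%). It was 12 higher and 1 lower without WT glycerol replicate 4, 2 higher and 0 lower without WT glycerol replicate 2, and 5 higher and 2 lower without C3-/- glycerol replicate 4. For these fits without 1 library the share of all tested genes is not given, so a shift of the members cannot be told from a general one. With equal totals 3 were higher, a count also given without the share of all tested genes. Within the first S series the members called higher included all 3 regulators: Ppara (1.51, adjusted p = 0.0016), Ppargc1a and Esrra (0.82, adjusted p = 0.00303). In the pooled fit Ppara (0.40 ± 0.82) and Esrra (1.07 ± 0.37, adjusted p = 0.0769) were not called. Pdk4 had the lowest pooled difference after that of Acsm3 (-1.76 ± 0.57, adjusted p = 0.0631) and was called lower with S series and Y status as covariates (-1.73, adjusted p = 0.00341).

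After PBS no member was called between the genotypes by limma, where 2.23% of tested genes were called in either direction, and 7 members had an unadjusted p below 0.05 (10.4% of tested genes). Within the first S series 9 members were called (19.3%), and 3 with S series and Y status as covariates (3.48%). Groups did not overlap for 6 members higher in C3-/- (13.9% of tested genes) and 10 lower (13.1%). The 6 included the mitochondrial enzymes Acaa2, Acadm, Eci1, Hadha and Echs1. Acaa2 was 0.78 ± 0.24 higher (adjusted p = 0.132; 1.41e-05 within the first S series) and Eci1, at 2265 to 2315 in C3-/- PBS and 1472 to 1739.9 in WT PBS, 0.52 ± 0.28 higher (adjusted p = 0.616; 0.00663 within the first S series). The 3 mitochondrial enzymes called higher in C3-/- after glycerol were thus without overlap above WT in PBS. Crot was the lowest peroxisomal gene relative to WT (-1.11 ± 0.38, adjusted p = 0.188), with 5543, 4585, 5645.5 and 11290.2 in C3-/- and 11746 to 15690.5 in WT.

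The difference between the glycerol responses of the genotypes was tested as an interaction, in which 0 of 38 members were called by limma (0.438% of tested genes were) and 4 members had an unadjusted p below 0.05 (10.5% of tested genes). The fitted difference (C3-/- response minus WT response) was positive for 34 of 38, with a median of 0.48 (all tested genes 0.03). With equal totals these medians were 0.36 and -0.08, and the calls over all genes went from 40 higher and 39 lower to 26 higher and 16 lower. It was largest for Acox3 (1.43, 95% interval 0.01 to 2.84, adjusted p = 0.475), Crot (1.31, 0.17 to 2.44, adjusted p = 0.384), Ppargc1a (1.17, 0.26 to 2.09, adjusted p = 0.305), Esrra (1.02, -0.08 to 2.13, adjusted p = 0.541), Cpt2 (0.91, -0.00 to 1.82, adjusted p = 0.482) and Acsm3 (0.89, -4.90 to 6.68, adjusted p = 0.982). Within the first S series 5 members passed, all higher (4.88% of tested genes): Ppargc1a (1.38, adjusted p = 0.0102), Ppara (1.47, adjusted p = 0.0204), Esrra (0.78, adjusted p = 0.0344), Pex11a (0.85, adjusted p = 0.0475) and Hadhb (0.42, adjusted p = 0.0493). With S series and Y status as covariates 4 passed, all higher (4.97%), again Ppargc1a (1.45, adjusted p = 0.00279), Hadhb and Pex11a, with Acsl1 (0.82, adjusted p = 0.00609). The WT and C3-/- responses and the genotype contrasts use the same libraries, so their values stand side by side here without being compared as independent results.

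Within the C3-/- groups 4 members differed widely between libraries with and without Y-linked transcripts. Acsm3 was 133, 152 and 125 in the 3 C3-/- PBS libraries without Y-linked transcripts and 10202 in the one with them, against 26184 to 33591 in WT PBS. After glycerol it was 1.0 and 34.7 in the C3-/- libraries without and 2591.5 and 2929.5 in those with Y-linked transcripts. Acsm2, which lies 160232 bases from Acsm3 on chromosome 7, was 32142, 28291 and 29356.5 against 142947 in PBS and 1863.5 and 4827 against 55630.2 and 26175 after glycerol. Cd36 was 2685, 2051 and 2438 against 12834 in PBS and 1142 and 2048 against 4806 and 6962 after glycerol. Cyp4a14 went the other way, at 10644, 8928.5 and 11162 against 153 in PBS and 1270.2 and 2898 against 72.9 and 319 after glycerol.

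These 4 differed at least 2-fold in the same direction in each of 3 comparisons of C3-/- libraries with and without Y-linked transcripts: PBS, first-series glycerol and second-series glycerol. The 3 higher and 1 lower stand beside 0.915% and 0.582% of tested genes. The log2 differences of Acsm3 were 6.21, 6.36 and 10.34, and those of Cyp4a14 were -6.05, -3.18 and -4.10. Acox2 (-2.52, -0.81 and -0.50) and Acsl1 (-0.71, -0.79 and -0.56) were lower with Y-linked transcripts in all 3 comparisons, and Acox3 (1.17, 0.78 and 2.53) and Crot (1.11, 0.51 and 1.27) were higher. Further members kept 1 direction too, such as Pdk4 (-0.83, -0.35 and -1.36) and Acads (0.65, 0.37 and 0.95). Others, such as Acadm (-0.39, 0.1 and 0.69), did not. The share of tested genes with 1 direction throughout is not given. In PBS, C3-/- replicate 4 lay above the other 3 for 21 members (35.1% of tested genes) and below them for 10 (33.4%). The median of the 12 proximal tubule markers was -0.05, -0.20 and -0.17 in the C3-/- PBS libraries without Y-linked transcripts and 0.19 in the one with them. Single markers split far more, so such a split is not particular to the members. In the same order Slc7a13 was 41.5, 58.2 and 75.5 against 13076, and Kap was 222056, 166501 and 240908 against 650329. Aqp1 went the other way, at 24783, 29530 and 28264 against 20721. Each comparison rests on 1 library per side or 1 against 3, with no test, and WT held no library without Y-linked transcripts. In C3-/- the genotype label and the absence of Y-linked transcripts, with the high Xist that went with it, cannot be told apart in the 5 libraries that lack them.

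**Figure D5:**
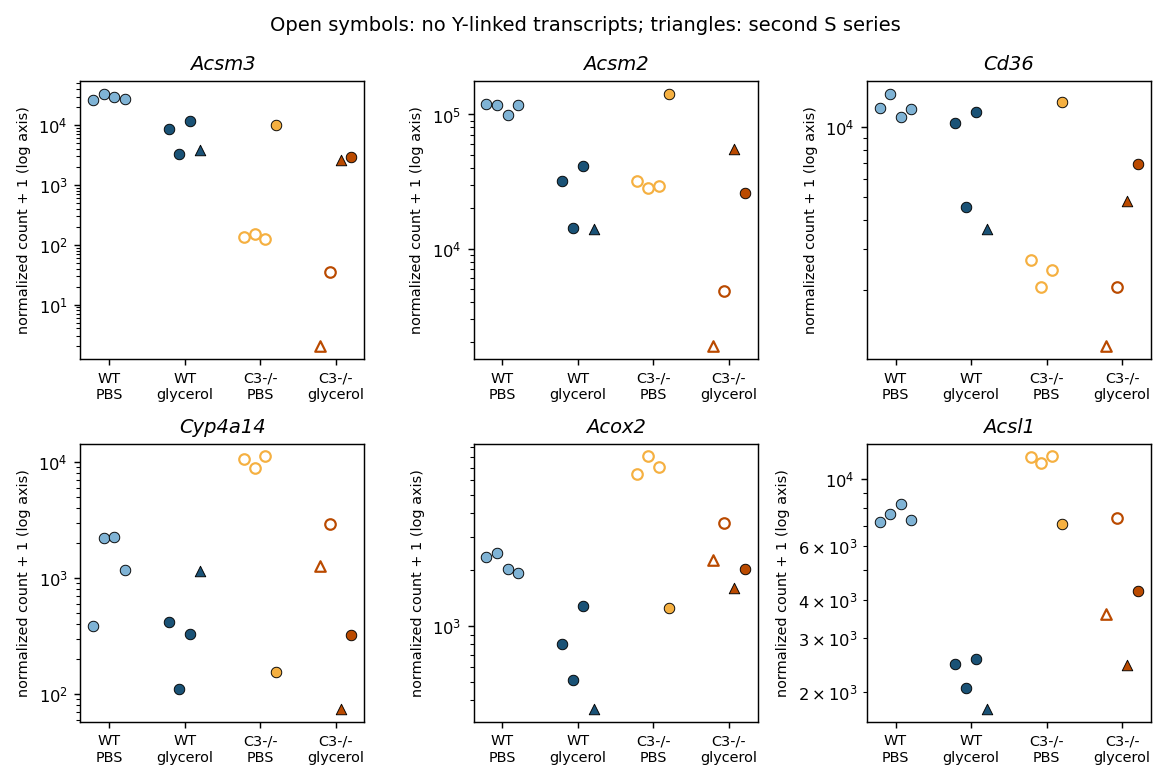
Normalized counts + 1 on a log axis for 6 members by group, with 1 point per library; open symbols lack Y-linked transcripts and triangles are second-series libraries. The open C3-/- symbols of Acsm3, Acsm2 and Cd36 lie below the filled ones and those of Cyp4a14 lie above them, in both treatments.

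Other genes of the same pathways, from lists of related genes, moved as follows. For these counts, 13.3% of all tested genes fell and 12.5% rose in WT after glycerol. In C3-/- 1.96% of tested genes fell and 3.68% rose. Of 20 other mitochondrial acyl-CoA enzymes tested, 16 fell and 0 rose in WT after glycerol (median -1.30), and 6 fell in C3-/- (median -0.94). Acss1, an acetyl-CoA synthetase of mitochondria, went from 8912 ± 408 to 2269 ± 536 in WT (SD, n = 4; -2.01 ± 0.21, adjusted p = 1.53e-05), and Bdh1, which interconverts ketone bodies, from 3753 ± 342 to 1385 ± 385 (-1.47 ± 0.24, adjusted p = 0.0006). Of 33 other peroxisomal genes 17 fell and 0 rose in WT (median -0.79), and 3 fell in C3-/- (median -0.36). Scp2, the thiolase and lipid carrier of peroxisomes, went from 28806 ± 1516 to 9399 ± 4330.5 in WT (-1.74 ± 0.35, adjusted p = 0.00213), and Amacr, the racemase for branched chains, from 8096.5 ± 768 to 1275 ± 997 (-3.02 ± 0.62, adjusted p = 0.00258).

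Among 25 other PPAR targets and lipid handling genes 2 rose and 9 fell in WT (median -1.0), and 2 rose and 2 fell in C3-/- (median -0.24). After glycerol 6 of the 25 were higher and 2 lower in C3-/- than in WT, where 6.38% of tested genes were higher and 4.85% lower. Plin2, the lipid droplet coat protein, was 11117 ± 3707 in WT glycerol and 982 ± 645 in C3-/- glycerol (n = 4 each; -3.71 ± 0.40, adjusted p = 2.82e-05), and 1779 ± 112 and 505 ± 54.8 in the PBS groups. Cpt1b, the muscle-type isoform of the shuttle enzyme, was 398 ± 98.5 in WT glycerol and 1390.1 ± 152 in C3-/- glycerol (1.83 ± 0.17, adjusted p = 9.96e-06). Fabp3, a fatty acid binding protein, fell in WT from 2016 ± 194 to 634 ± 186 (-1.70 ± 0.19, adjusted p = 3.37e-05). Fgf21, a hormone gene induced by PPARα and by stress, rose in WT from 0.3 ± 0.5 to 68.2 ± 93.3 (5.00 ± 0.66, adjusted p = 0.0001).

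Of 21 nuclear receptor and coregulator genes 1 rose and 7 fell in WT (12.5% and 13.3% of tested genes). After glycerol 3 were higher and 0 lower in C3-/- than in WT (6.38% and 4.85%). Esrrb, a relative of Esrra, went from 1209.9 ± 217 to 289.6 ± 136 in WT (-2.22 ± 0.36, adjusted p = 0.000559). Lpin1, a phosphatidate phosphatase and coactivator of PPARα, fell by 2.36 ± 0.54 (adjusted p = 0.00488), and Sirt3, the mitochondrial deacetylase, by 1.57 ± 0.35 (adjusted p = 0.00447). Pprc1, a relative of PGC-1α, rose from 398 ± 79.4 to 1518 ± 807 (1.81 ± 0.38, adjusted p = 0.00305). Ppargc1b, which encodes PGC-1β, was 1.5 ± 0.32 higher in C3-/- than in WT after glycerol (adjusted p = 0.00645).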

How the data were processed

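Kidney RNA was sequenced in 16 libraries, 4 per group. The authors deposited DESeq2-normalized counts, a signal with no fixed depth; per the submitters' processing notes they used STAR 2.7.1, DESeq2 and R 3.6.1 on GRCm38, and the name of the deposited matrix gives Ensembl release 96. Those notes name no counting program. The authors' deposited tables also hold log2 fold changes, test scores (the statistic) and p-values, used only for the counts at the end of the closing section. At most 2.1% of values were whole multiples of one read (tolerance 0.01), which leaves the depth unknown and gave no basis for a count model; library totals were 25.81 to 38.39 M normalized counts.

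Values were tested as log2(value + 1) with limma 3.58.1 in R 4.3.3 (trend, all 16 libraries, 5 contrasts), after a filter of at least 10 in 4 libraries, with Benjamini-Hochberg adjustment and a threshold of 0.05. Fold changes are on that scale and understate low genes. The test was checked on simulated data. All 38 members are named, and of each other list up to 6 genes by smallest adjusted p. The members, lists and tests were chosen with earlier results of these data known. Alternatives are in the closing section. Promoter and gene positions are from RefSeq and GENCODE M21.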

Additional observations from a re-analysis of the deposited data

Results flagged for a closer look

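In each group of 4 libraries, the highest or lowest value of a member was marked where its gap to the next library exceeded the critical share of the group's range for 4 values in Dixon's test. This marked 18 of 152 groups of values. Members share the same libraries, so these groups are not independent, and the share marked over all tested genes is not given. Of the 18, 11 were C3-/- PBS replicate 4, the C3-/- PBS library with Y-linked transcripts. It lay above the other 3 for 35.1% of tested genes and below them for 33.4%, so such marks are not particular to the members. In that library Acads (4959.6), Cpt1a (14366.8), Etfa (9963.3), Etfdh (5044.2), Acox3 (8708.5), Hsd17b4 (5886.2), Crot (11290.2), Acsm2 (142947.2), Acsm3 (10202.2) and Cd36 (12834.3) stood above the other 3 libraries of the group, and Acsl1 (7111.1) stood below them.

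The second-series library C3-/- glycerol replicate 3 was far above its group in Acadvl (12059.5) and Acaa1b (14074.5), and the second-series library WT glycerol replicate 4 was far above its group in Acaa2 (1653.7). WT glycerol replicate 2 was far below its group in Acadvl (2521.6). In the PBS groups, Eci1 was low in C3-/- replicate 2 (2265.4), Acsm2 was low in WT replicate 3 (99037.5) and Esrra was high in WT replicate 4 (2898.8).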

How the results depend on the processing

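A pseudocount of 8, no filter, a mean of at least 100 and quantile normalization kept each count of members called within 1.5 times its main value, and none of the 32 calls on single members reversed under any alternative. Equal totals gave 3 members between the genotypes after glycerol and 1 after PBS, without the shares over all tested genes. Within the first S series the counts were 34 in WT, 11 in C3-/-, 16 between the genotypes after glycerol, 9 after PBS and 5 for the difference between the responses. With S series and Y status as covariates they were 35, 13, 22, 3 and 4, and the mitochondrial minus peroxisomal median in WT was 0.57. Fits over libraries with Y-linked transcripts, or with Y status as the only covariate, were chosen after seeing the data. The first gave 0 in C3-/- and 2 between the genotypes after glycerol, and the second gave 8 in C3-/-; the mitochondrial minus peroxisomal median in C3-/- was -0.37 and -0.21. The cause of these shifts was not tested. Leaving out each library in turn gave 19 to 25 members in WT, 3 to 12 in C3-/-, 2 to 13 between the genotypes after glycerol, 0 to 3 after PBS and 0 to 0 for the difference between the responses. After PBS it was 3 without C3-/- PBS replicate 4. Shares over all tested genes are not given for the fits without 1 library. The mitochondrial minus peroxisomal median ranged from 0.10 to 0.37 in WT, -0.16 to 0.16 in C3-/- and -0.06 to 0.16 between the genotypes after glycerol. With the replicate number as a block the counts were 20, 3, 4, 0 and 0. No share over all tested genes is given for that fit either, so a shift of the members cannot be told from a general one. Of 24 pairs of libraries with the same number 4 had a correlation of deviations above 0.1 (range -0.69 to 0.38), and 3 of 16 libraries correlated best with their own number. WT glycerol replicate 4 correlated at 0.65 and 0.55 with the second-series C3-/- glycerol libraries and at -0.69 with each first-series one. The correlations thus also differed by S series and cannot show whether libraries of the same number were paired. Depth is unknown, so counting error could not be given. In the authors' deposited tables, at their adjusted p below 0.05, 23 members were lower in WT, 10 lower in C3-/- and 9 higher in C3-/- than in WT after glycerol. Acsm3 had no p-value there and could not be counted. The share of all genes called in those tables is not given, so these counts cannot be set directly against those from limma.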
